A study of Fagopyrum tataricum with 9 samples.

Results

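A set of 63 genes of Tartary buckwheat (Fagopyrum tataricum) was expressed in seeds at 13 days post anthesis (DPA). It was low but mostly still counted at 19 DPA, and most of its genes were close to the limit of detection at 25 DPA. The members were chosen by their deposited FPKM (fragments scaled to gene length and library total): a mean of at least 10 over the 3 libraries of 13 DPA and means below 1 at both 19 and 25 DPA. They were the 63 genes that met these limits among 31848 annotated identifiers, after the genes of the study's phytohormone and flavonoid lists had been left out. The file holds 33940 genes in all, and none of its new, unannotated genes met the limits. Because the levels at all 3 stages made the choice, the fall itself is a description of the set and is not tested as a finding.

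All 9 libraries came from field-grown seeds of 1 cultivar, XIQIAO NO.2, with no treatment and 3 replicates per stage. The labels name 13 DPA the green fruit stage, 19 DPA the discoloration stage and 25 DPA the initial maturity stage. The paper states that the replicates came from 3 plants and the stages from the same individual, but not that a replicate number marks a plant. The libraries held 22002318 to 25811462 counts. The deposited FPKM carry no scaling factor between libraries, and the TMM factors fitted here were 1.31 to 1.81 for the green fruit stage, 0.733 to 0.971 for the discoloration stage and 0.652 to 0.788 for the initial maturity stage. The median FPKM over all genes was 3.47 to 5.01, 1.75 to 2.50 and 1.06 to 1.48 at the same stages, so FPKM in general stood lower at the late stages. With FPKM divided by the TMM factors, 27 genes met the rule, and all 27 were among the 63.

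The unit harvested as a buckwheat seed is an achene, a dry fruit in which a fruit coat encloses a seed coat, a starchy endosperm and an embryo. In young green fruits the coats and the young endosperm are still growing. Later the coat hardens and darkens, and the fruit dries. Genes of the growth phase are commonly turned down as a fruit matures. The paper measured its highest starch content per dry weight at the green fruit stage, with a fall afterwards, and total protein rose until the initial maturity stage. In whole seeds, fewer cells of a type and less RNA per cell cannot be told apart.

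The files do not pair the identifiers with gene names, and the study's tables annotated none of the 63 members. Of the members, FtPinG0001217800.01, the one with the highest mean at 13 DPA, and FtPinG0001347500.01, the highest of those with the fewest counts after 13 DPA, are given by identifier. The others are given by their rank in mean FPKM at 13 DPA.

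The set was a small share of the genes expressed in green fruits. Of 12248 annotated genes outside the lists with a mean of at least 10 FPKM at 13 DPA, 11466 (93.6%) stayed at or above 1 FPKM at both later stages. Another 717 genes (5.85%) fell below 1 FPKM only at 25 DPA and are called the later group here. The 63 members made up 0.514%, and 2 genes were below 1 FPKM at 19 DPA and at or above 1 at 25 DPA.

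Mean FPKM of the members at 13 DPA ran from 10.1 to 94.2, with a median of 16.8 and quartiles of 13.0 and 26.7. The set was therefore mostly of moderate level, and the 10 highest members held 35.8% of its summed TMM-scaled CPM (counts relative to library size, with edgeR's TMM factors) at 13 DPA. At 19 DPA the means ran from 0.0310 to 0.997, with a median of 0.604. At 25 DPA they ran from 0 to 0.950, with a median of 0.0716. Many members thus stood close under the limit at 19 DPA but far under it at 25 DPA.

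The limits at 13 and 19 DPA cut through a continuous range. The lowest members at 13 DPA had means of 10.1, 10.1 and 10.2 FPKM, and the next genes outside had 9.76, 9.53 and 9.49. At 19 DPA the members nearest the limit had 0.997, 0.985 and 0.985 FPKM, and the nearest genes outside had 1.002, 1.01 and 1.02. At 25 DPA the nearest members had 0.950, 0.859 and 0.801 FPKM, and the only 2 genes outside had 1.08 and 21.8.

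**Figure D1:**
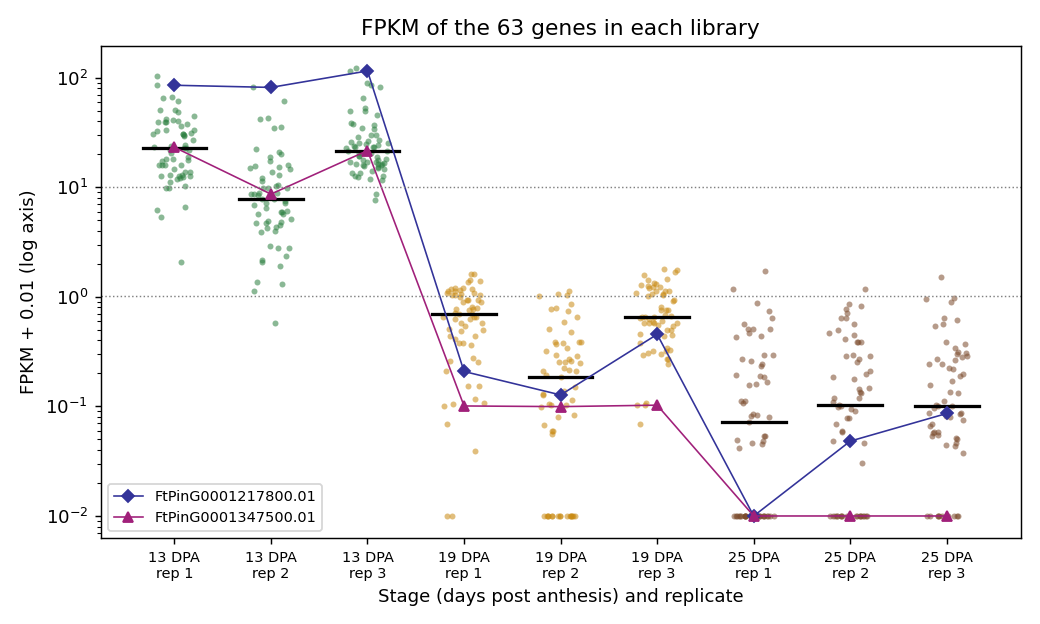
FPKM plus 0.01 of each of the 63 genes (points, log axis) in the 9 libraries, with the median per library (black bars), the limits of 10 and 1 FPKM (dotted) and both genes given by identifier (joined symbols). The medians at 13 DPA are 22.9, 7.79 and 21.3 FPKM, and replicate 2 is the lowest at 13 DPA and at 19 DPA.

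FtPinG0001217800.01 had 85.5, 81.6 and 115 FPKM in replicates 1, 2 and 3 at 13 DPA, or 94.2 ± 18.5 (SD, n = 3). At 19 DPA it had 0.198, 0.117 and 0.445 FPKM, and at 25 DPA 0, 0.0382 and 0.0763. The 3 green-fruit libraries were close together and stood far above all 6 later ones, and its coefficient of variation at 13 DPA, 19.6%, was the lowest in the set. The counts behind these levels were 2280, 2333 and 2811 in green fruits, 5, 3 and 11 at 19 DPA, and 0, 1 and 2 in the 25 DPA libraries. Its fitted log2 fold change from 13 to 19 DPA was -7.71 (SE 0.42), given as a description because the rule used these values.

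FtPinG0001347500.01, at rank 29, had 23.2, 8.66 and 21.6 FPKM at 13 DPA. It had exactly 1 count in each library at 19 DPA and 0 in each at 25 DPA, after 270, 108 and 230 counts at 13 DPA. Its groups did not overlap, but with so few counts the late level was not resolved. For genes at 0 in all 3 libraries of a stage, the floor taken was 3 counts over the stage, for counting error alone.

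Residual transcripts of the set were still counted after the green fruit stage. The summed counts of a member over the 3 libraries ran from 253 to 7424 at 13 DPA, with a median of 1051. At 19 DPA they ran from 1 to 161, with a median of 32, and at 25 DPA from 0 to 155, with a median of 5. The word silenced would therefore overstate the level at 19 DPA, where 46 members had counts in all 3 libraries and none was at 0 in all 3. At 25 DPA 33 members had counts in all 3 libraries, 6 were at 0 in all 3, and 26 had at most 3 counts in sum.

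**Figure D2:**
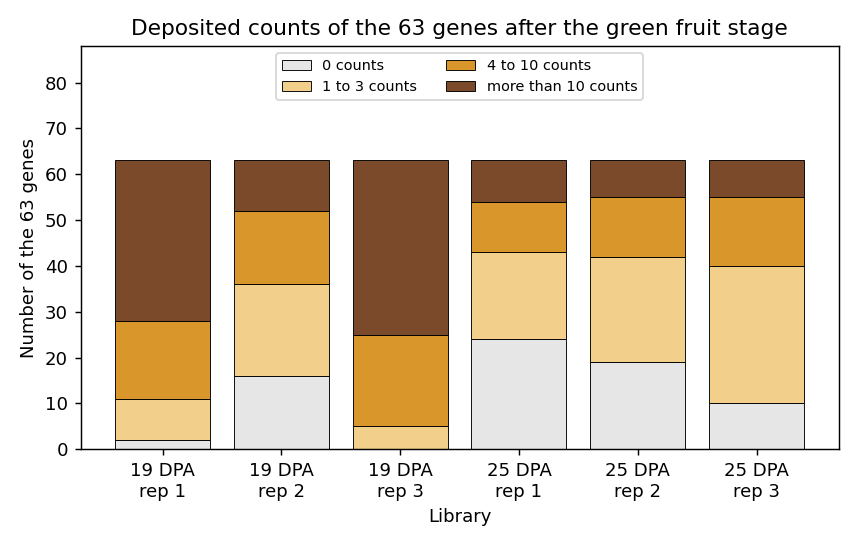
Number of the 63 genes (vertical axis) in 4 classes of deposited counts, for each library of 19 and 25 DPA. More than 10 counts were held by 35, 11 and 38 genes at 19 DPA and by 9, 8 and 8 genes at 25 DPA, and 0 counts by 2, 16 and 0 and by 24, 19 and 10.

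Gene length set how many counts 1 FPKM stood for. For a member of median length, 928 bases, 1 FPKM equalled 21.1 counts in the 19 DPA library of median depth, and for the longest member, 2605 bases, 59.3 counts. The members ranged from 306 to 2605 bases. In the shortest, at rank 50, 8 counts in 19 DPA replicate 1 came to 1.15 FPKM. Those under 600 bases made up 30.2% of the set (19 genes), 15.5% of the later group and 12.5% of all annotated genes outside the lists at or above 10 FPKM at 13 DPA. This difference was not tested.

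The drop differed widely between members. The ratio of mean TMM-scaled CPM at 13 DPA to that at 19 DPA ran from 6.12 to 428, with a median of 17.6. The same ratio had a median of 1.85 in the later group, a gap that the limit at 19 DPA builds in. From 13 to 25 DPA the median ratio was 89.5, with the 6 members at 0 counted at a lower bound of 3 counts over the stage. Those bounds were at least 61.5-fold to at least 158-fold.

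By TMM-scaled CPM, 61 of 63 members had every 13 DPA library above every 19 DPA library, which 16.3% of all tested genes also had. The exceptions were the members of ranks 42 and 61. For 13 against 25 DPA, 61 members did not overlap either, against 34.2% of tested genes, and the exceptions were ranks 26 and 46. Since the rule chose on these stages, the counts describe the replicates and support nothing further.

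In the fit of all genes, 62 of 63 members passed the count filter. The member left out, at rank 26, had 587, 9 and 275 counts at 13 DPA. Of those 62, 58 were lower at 19 than at 13 DPA at an FDR of at most 0.05 and a log2 fold change of at least 1, where 4.46% of all 23609 tested genes were called lower. All 62 were lower at 25 than at 13 DPA, where 25.6% of tested genes were. The median log2 fold change of the members was -4.12 and -6.73 in these comparisons, against -0.03 and -0.07 over all tested genes. The rule used the same libraries, so these calls and medians follow from the choice of members and nothing is read from them. Without 13 DPA replicate 1, 35 members were called at 19 DPA.

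The 4 members not called at 19 DPA were those of ranks 42, 51, 54 and 61. With the replicate number as a block, all 62 tested members were called. Rank 42 had 2.08, 2.80 and 37.1 FPKM in replicates 1, 2 and 3 at 13 DPA, and its coefficient of variation of 143% was the highest in the set. Its place in the set came from 1 library. Rank 61 was alike in form, with 5.38, 1.35 and 23.9 FPKM.

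The set was not at an even level across the green-fruit replicates. Summed FPKM of the members were 1743, 765 and 1847 in replicates 1, 2 and 3, and summed TMM-scaled CPM were 1025, 568 and 907. Replicate 2 was thus the lowest on both scales. By FPKM 57, 22 and 61 members reached 10 in the 3 libraries, and 20 members did so in all 3. A further 37 members reached 10 in 2 libraries and 6 in 1.

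Replicate 2 was the lowest 13 DPA library for 56 of 63 members by FPKM, against 65.5% of all annotated genes outside the lists at or above 10 FPKM and 72.8% of the later group. By TMM-scaled CPM it was the lowest for 50 members, against 36.7% and 59.3%. The median ratio of replicate 2 to the mean of replicates 1 and 3 was 0.499 in the members, 0.745 in the later group and 1.01 in all genes on the TMM scale. On the deposited FPKM scale the ratios were 0.379, 0.569 and 0.773. The low level in replicate 2 was thus shared in part by the later group, and its difference from the set was not tested.

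Members differed in this respect. The ratio by FPKM ran from 0.0189 at rank 26, with 40.0, 0.573 and 20.5 FPKM, to 2.05 at rank 43, with 13.0, 21.1 and 7.63 FPKM. Replicate 2 was the highest for only 3 members, those of ranks 15, 43 and 53. By TMM-scaled CPM 16 members (25.4%) were under 25% of the mean of replicates 1 and 3, against 11.2% of the later group and 1.36% of all genes. The coefficient of variation at 13 DPA had a median of 53.6% in the members, 40.7% in the later group and 23.6% in all genes.

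**Figure D3:**
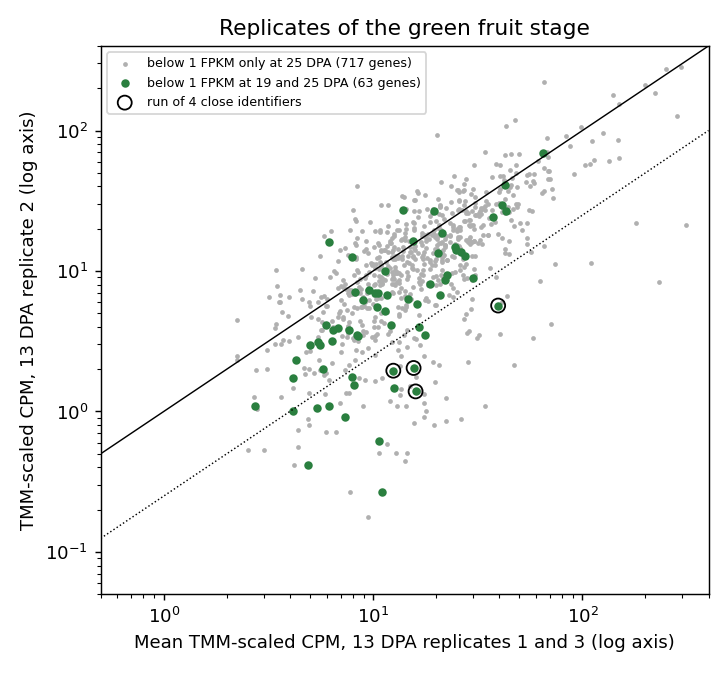
TMM-scaled CPM of 13 DPA replicate 2 against the mean of replicates 1 and 3 (both log axes) for the 63 genes (green) and the later group of 717 genes (grey), with the line of equality (solid), the line at 25% (dotted) and the run of 4 close identifiers (ringed). Most green points lie under the line of equality, with a median ratio of 0.499, and 16 lie under the dotted line.

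The same replicate number was low at 19 DPA. Summed FPKM of the members were 43.6, 16.4 and 47.3 in replicates 1, 2 and 3 at 19 DPA, and summed TMM-scaled CPM were 44.8, 24.7 and 49.8. Replicate 2 was the lowest for 50 members by FPKM, against 72.6% of all annotated genes outside the lists at or above 10 FPKM at 13 DPA and 88.4% of the later group. By TMM-scaled CPM it was the lowest for 41, against 38.6% and 78.8%, and these differences were not tested. At 25 DPA the sums were 11.9, 12.8 and 13.0 FPKM and 16.9, 15.3 and 21.4 TMM-scaled CPM, and no library stood apart as at the earlier stages.

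Both glutelin genes followed here were higher in 13 DPA replicate 2. FtPinG0000417000.01, which the study lists among storage protein genes as related to glutelin, had 9.20, 30.2 and 9.81 FPKM in replicates 1, 2 and 3. The second glutelin gene, FtPinG0008579200.01, had 82.0, 166 and 71.8 FPKM. Both were highest in the library where most members were lowest, and the part of seed age in the low member levels was not tested. At 19 DPA the first gene had 3.06, 2.72 and 2.69 FPKM and the other 42.1, 39.9 and 35.8, and replicate 2 did not stand apart there. Mean FPKM at 13, 19 and 25 DPA was 16.4, 2.82 and 22.5 for the first gene and 107, 39.3 and 64.1 for the second. Both were thus lowest at 19 DPA, while FPKM in general stood lower at both later stages than at 13 DPA. Between 13 and 19 DPA the edgeR fit called 0 of the 2 genes, and 1 had an unadjusted p under 0.05. By DESeq2 1 was called. Whether their level follows seed age was not tested. Other storage protein genes were not analysed here.

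Choosing without a replicate number left 3 libraries that the choice had not seen. Without replicate 1 the rule gave 62 genes, of which 49 reached 10 FPKM in 13 DPA replicate 1, 33 were below 1 in 19 DPA replicate 1 and 61 were below 1 in 25 DPA replicate 1. Without replicate 2 it gave 58 genes, and the same counts were 14, 54 and 56. Without replicate 3 it gave 57 genes, and the counts were 55, 32 and 57. In the unseen libraries the 13 DPA level was above both others for 62 of 62, 58 of 58 and 57 of 57 genes. Of all annotated genes outside the lists with at least 10 FPKM over the other 13 DPA replicates, 81.7%, 79.3% and 83.7% had this order. All 3 limits were met there by 25, 13 and 30 of the chosen genes.

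**Figure D4:**
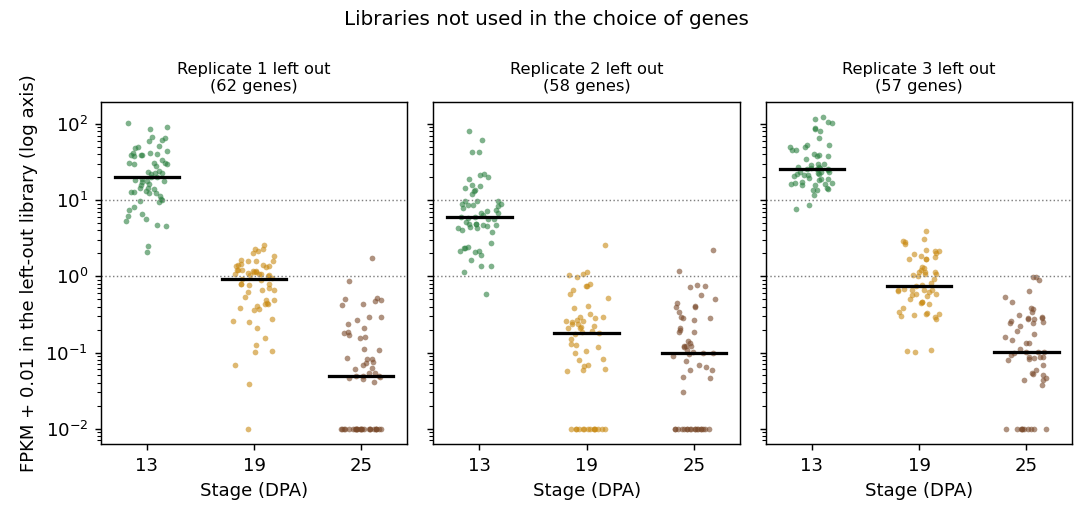
FPKM plus 0.01 (log axis) at 13, 19 and 25 DPA in the libraries of the replicate number left out of the choice, for the genes chosen on the other 2 numbers (points) with medians (bars) and the limits of 10 and 1 FPKM (dotted). The 13 DPA medians are 20.2, 5.998 and 25.4 FPKM and the 19 DPA medians 0.925, 0.172 and 0.741.

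In the fit of all 9 libraries, 20 of the 62 tested members were called lower at 25 than at 19 DPA and 0 higher. The count filter used all 9 libraries, so members could pass it through their 13 DPA counts alone. In a fit of only the 6 libraries of these stages, 13 members were tested and 3 were called lower. The mean at 25 DPA was below that at 19 DPA for 57 of 63 members by FPKM and for 53 by TMM-scaled CPM, against 64.8% and 50.2% of all annotated genes outside the lists at or above 10 FPKM at 13 DPA. The 20 calls were by edgeR's quasi-likelihood test with Benjamini-Hochberg adjustment, by which 19.5% of all tested genes were lower and 28.8% changed in either direction. At an unadjusted p under 0.05 28 members were lower and 0 higher. By DESeq2 29 members were lower and 0 higher, and by limma on log2(FPKM + 1) 0 were called in either direction and 5 were lower at an unadjusted p under 0.05. By TMM-scaled CPM 19 members had every 25 DPA library below every 19 DPA library, as did 28.2% of tested genes, and none had the reverse. The rule bounds the level at both stages, and the difference from all genes was not tested.

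The 6 members with a higher mean FPKM at 25 DPA than at 19 DPA were those of ranks 26, 31, 32, 35, 46 and 49. Rank 46 had 0.106, 0.105 and 0.757 FPKM at 19 DPA and 1.73, 0.818 and 0.306 at 25 DPA. Its stages overlapped. Rank 49 had 0.143, 0.141 and 0.437 FPKM at 19 DPA and 0.726, 1.17 and 0.275 at 25 DPA, and these overlapped as well.

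Some members had identifier numbers close to each other. In 5 runs with steps of at most 5000 in the number stood 12 members: pairs 300, 200, 900 and 3700 apart, and 1 run of 4 within 4900, where the file lists 16 identifiers. Within that distance of another gene of the same kind stood 19.0% of the members, 52.9% of the later group and nearly all of the 12248 genes at or above 10 FPKM, and these groups differ greatly in size. The order of identifiers along the genome is not given in the sources used here. Near-identical copies could share reads, which the unstated counting may split. FtPinG0001217800.01 stood in the first pair with the member of rank 10, and FtPinG0001347500.01 in the second with that of rank 12.

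The run of 4 had a common profile over the green-fruit replicates. Its highest member, at rank 5, had 104, 8.67 and 49.8 FPKM at 13 DPA. Ranks 14, 23 and 34 were of the same form, for example 48.4, 3.99 and 29.9 FPKM at rank 14. In all 4, replicate 1 was the highest and replicate 2 was 0.0684 to 0.121 of the mean of replicates 1 and 3 by FPKM. This form was not particular to the run. Outside it, ranks 26, 32, 39 and 46 also had replicate 1 highest, with ratios of 0.0189, 0.0456, 0.0906 and 0.0663. In the whole set, replicate 1 was the highest for 31 members and replicate 2 the lowest for 56 by FPKM. A difference between the run and the set was not tested.

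One annotated gene met the same limits and was left out because it is in the phytohormone list. FtPinG0006187600.01 belongs to the GASA family, small cysteine-rich proteins whose Arabidopsis members are regulated by gibberellin. It had 16.5, 3.35 and 20.4 FPKM in green fruits, 0, 0.202 and 0.105 at 19 DPA, and 0.104, 0.0989 and 0 in the last stage. As in most members, replicate 2 was the lowest at 13 DPA. Its log2 fold change from 13 to 19 DPA was -5.95 (SE 0.93), again a description. Only 3 counts stood behind its 19 DPA level.

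The limits were met by 0.514% of annotated genes outside the lists at or above 10 FPKM at 13 DPA. Of the annotated genes followed here, 6 MADS-box, 2 NST, 15 starch synthase, 11 flavonoid and 93 phytohormone genes stood at or above 10 FPKM at 13 DPA. Nothing is read from how many of them met the limits. None of the 7 MADS-box genes, which set floral organ and fruit identity, met the limits. At 19 DPA 1 was called lower than at 13 DPA, as were 4.46% of all tested genes. At 25 DPA 6 were called lower than at 13 DPA, as were 25.6% of all tested genes. The one called at 19 DPA was FtSEP1-2, a SEPALLATA-type gene, with 52.5, 47.7 and 42.3 FPKM in green fruits, then 14.3, 7.95 and 6.72 at 19 DPA, and 1.08, 1.38 and 0.975 in the last stage. It fell without overlap but stayed above 1 FPKM at 19 DPA. FtAGL went from 333 ± 47.1 to 127 ± 30.6 and 16.9 ± 5.07 FPKM (SD, n = 3), and its 13 DPA replicate 2 was its highest library.

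Of the 3 NST genes, NAC factors that switch on secondary wall thickening in Arabidopsis, none met the limits. All 3 were called lower at 25 DPA than at 13 DPA, as were 25.6% of all tested genes. At 19 DPA 0 were called against 13 DPA by edgeR, 0 had an unadjusted p under 0.05, and 0 were called by DESeq2. FtNST1 came nearest, with 2.92 ± 2.03, 0.528 ± 0.164 and 0.0607 ± 0.105 FPKM (SD, n = 3), below the limit at 13 DPA. Of 20 starch synthase genes and 47 flavonoid genes none met the limits, and of 276 phytohormone genes 1 did. A further listed phytohormone identifier matched no gene of the files. At 19 against 13 DPA, where 4.46% of all tested genes were lower and 4.11% higher, 12 of 191 tested phytohormone genes were lower and 10 higher, and of 31 tested flavonoid genes 1 was lower and 7 higher. At 25 against 13 DPA, where 25.6% were lower and 16.6% higher, 73 phytohormone genes were lower and 27 higher, 12 flavonoid genes were lower and 10 higher, and of 17 tested starch synthase genes 4 were lower and 2 higher.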

How the data were processed

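Total RNA was extracted from seeds. By the paper's methods, mRNA was enriched on oligo(dT) beads and sequenced in 9 libraries, 3 per stage. Deposited counts are whole numbers per gene, not normalized by the authors, and the submitters' processing notes name Bowtie2 2.0.6 and TopHat2 2.0.12. Counting tool and strand setting: not given in the sources used here. Deposited FPKM match those counts over gene length and library total.

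Counts were fitted in R 4.3.3 with edgeR 4.0.16 (TMM, filterByExpr, robust quasi-likelihood test, all 9 libraries), and Benjamini-Hochberg adjustment ran over 23609 genes. The SE is the log2 fold change over the square root of F. Gene lengths were computed from counts and FPKM. The script was tested on simulated data.

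The members and lists were chosen with earlier results of these data known. Members named by identifier are the highest at 13 DPA and the highest among those with the fewest late counts.

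Labels give replicates and not a plant per number. Deviations from the stage mean, correlated across genes, gave r of 0.438, 0.508 and 0.621 between 13 and 19 DPA libraries with 1 number. With different numbers r was -0.483 to -0.116, which taking deviations from a stage mean partly forces. The numbers may pair these stages, and the main fit has no block for them. With 1 number r was -0.0389 to 0.114 between 13 and 25 DPA and 0.0172 to 0.200 between 19 and 25 DPA. Alternatives were DESeq2 1.42.0, limma 3.58.1, other scalings, filters and limits, the replicate block and each library left out.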

Additional observations from a re-analysis of the deposited data

How the results depend on the processing

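The number of members depended most on the limits: 178 genes met a 13 DPA limit of 5 FPKM, 27 a limit of 20, 24 late limits of 0.5, 169 late limits of 2, and 9 the limits in every replicate. With FPKM divided by TMM factors it was 27. Leaving out 1 library gave 47 to 106 genes, the highest without 19 DPA replicate 3, and leaving out a replicate number 57 to 62. Members called lower at 19 than at 13 DPA numbered 35 to 61 with 1 library left out, the lowest without 13 DPA replicate 1. Those called at 25 DPA against 13 DPA stayed within 61 to 63 in the alternatives run. Members changed between 19 and 25 DPA numbered 3 in a fit of the 6 libraries of the pair, in which 13 members were tested, and 0 by limma on log2(FPKM + 1) with or without a filter, where 5 and 3 were lower at an unadjusted p under 0.05. They numbered 8 to 25 with 1 library left out: 9 and 12 without 19 DPA replicates 1 and 3, and 8, 11 and 13 without 25 DPA replicates 1, 2 and 3. With the replicate block 62, 61 and 28 members were called in the 3 comparisons, and it changed no call of the 2 members and the GASA gene given by identifier at 19 or 25 DPA against 13 DPA. Total counts without factors moved the median of all genes to -0.85, -1.19 and -0.32 (log2). Counts of 0 to 3 in most members at 25 DPA limit any comparison of the late stages.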
